A study of Mus musculus with 4 samples.

Results

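The T cells described here carried the T cell receptor (TCR) named TRP1low and were stimulated for 48 h by B cells loaded with the M9 peptide or with the K8 peptide. TRP1, tyrosinase-related protein 1, is a pigment cell protein and a melanoma antigen. The members are 2 of the 4 libraries of the series, 1 library of TRP1low cells with M9 and 1 library of TRP1low cells with K8. The other pair, TRP1high cells with M9 and with K8, held a different TCR under the same peptides and time, and its values are given only beside those of TRP1low. The series concerns peptide binding to MHC class I and the effector response of CD8 T cells, and the comparison asks what TRP1low cells transcribed differently after the 2 peptides. The labels give no mouse strain, age, culture or peptide dose, and every group had T cells sorted out of the B cell co-culture before total RNA was made. Values are normalized counts, obtained from the deposited log2(normalized counts + 1), and a difference is the deposited log2 value with M9 minus that with K8. Genes were ranked where at least 100 normalized counts stood in 1 of the 2 libraries, which kept 10243 of 16338 rows. With 1 library per peptide there was no replicate and no p-value, so words such as higher and lower describe these 2 libraries. Intervals printed with a fold are 95% exact (Clopper-Pearson) intervals of the ratio of estimated reads, and they cover counting error only.

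A CD8 T cell that meets its peptide on MHC class I signals through the TCR to NFAT, NF-kB and the MAP kinase pathway. The first response transcribes NR4A, EGR and AP-1 factors with their feedback inhibitors, and later hours bring the interleukin 2 receptor, sugar and lipid metabolism, granule proteins and inhibitory receptors. Receptors that hold resting cells in circulation, such as S1pr1, and transcription factors of the memory state, such as Tcf7, are known to be transcribed less after strong stimulation.

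The same TCR segments led in both TRP1low libraries. Trbv12-1 (chromosome 6) held 10580 of 10595 Trbv reads (99.9%) with M9 and 8685 of 8720 (99.6%) with K8. Traj26 held 72.3% of Traj reads with M9 and 73.5% with K8, and Trav6-5 held 75.7% of Trav reads with M9 and 71.9% with K8. The CD8 chains Cd8a (28938 normalized counts with M9 and 36073 with K8, difference -0.32) and Cd8b1 (22036 with M9 and 22039.5 with K8) were present in both libraries. Cd4 had 18.3 normalized counts with M9 and 25.5 with K8. The libraries were not equally deep: an estimated 40.3 M reads were counted with M9 and 29.6 M with K8, against 41.5 M with M9 and 40.5 M with K8 in TRP1high. One read was worth 1.05 normalized counts with M9 and 1.37 with K8, and 769 genes were at 0 with M9 and 1205 with K8. A gene at 0 in a library was given that library's floor of 3 reads, 3.15 normalized counts with M9 and 4.10 with K8, and its fold is written as a lower bound. The K8 library of TRP1low also stood apart in haemoglobin transcripts and in long transcripts, as set out beside the results these touch. RNA quality was not measured here, and its part in the differences was not tested. The K8 library is one of the 2 libraries compared, so no value could be given without it.

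Of the 10243 ranked genes, 1036 (10.1%) were called at 2-fold, 539 of them higher with M9 (5.26%) and 497 lower (4.85%). These shares are the background against which each family is read. The median difference was 0.01 over the ranked genes and 0.02 over all genes. At least 4-fold differences were seen for 148 higher and 146 lower genes, and at least 8-fold differences for 47 higher and 61 lower genes. Of the called genes, 177 higher and 155 lower ones reached 1000 normalized counts in 1 of the libraries. In TRP1high, 331 of 10182 ranked genes (3.25%) were higher and 242 (2.38%) lower with M9. The higher lists shared 113 genes, of 539 in TRP1low and 331 in TRP1high, and the lower lists shared 86, of 497 and 242. Another 13 genes higher in TRP1low were lower in TRP1high, and 22 lower ones were higher, and no difference between the TCRs was tested. At the edge of the ranking, Dnal1 (100.1 normalized counts with M9 and 72.6 with K8) was just inside and Nat8f1 (12.8 with M9 and 99.9 with K8, difference -2.87) just outside.

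**Figure D1:**
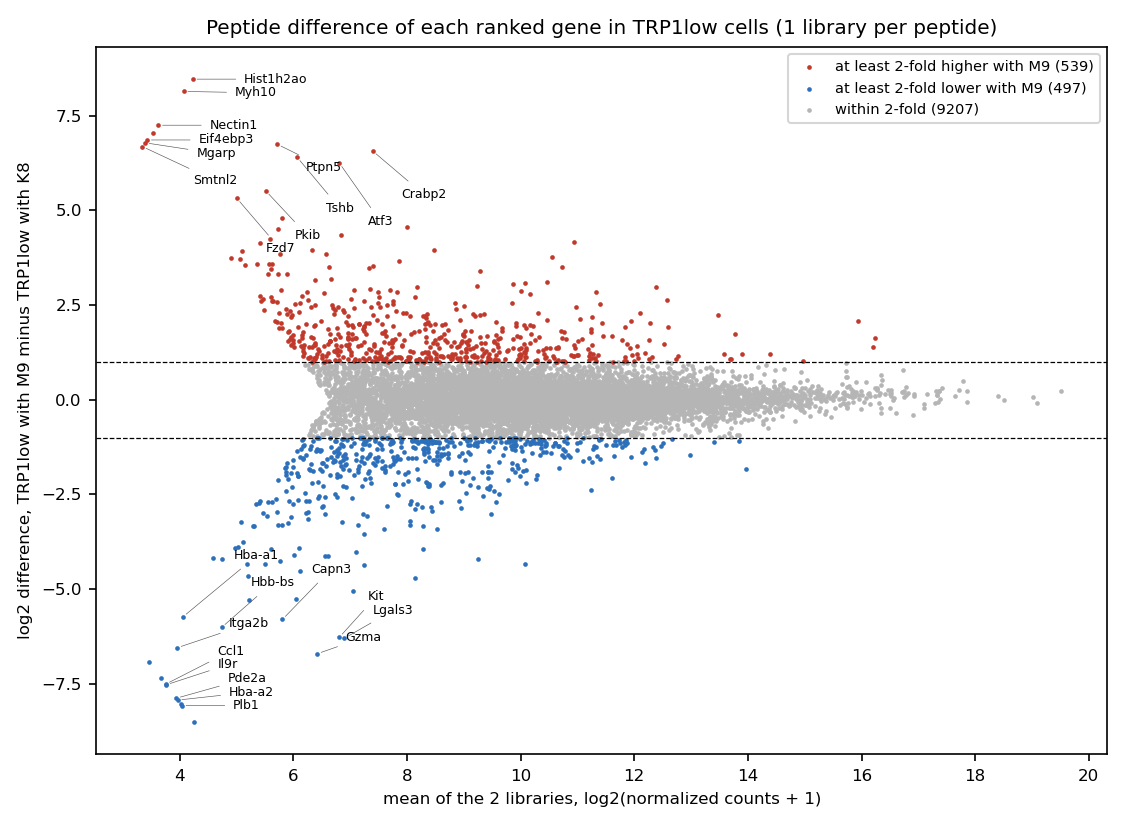
Each point is 1 of the 10243 ranked genes, with the mean log2(normalized counts + 1) of the 2 TRP1low libraries on the x axis and the log2 difference, M9 minus K8, on the y axis. The dashed lines mark 2-fold, beyond which lie 539 higher (red) and 497 lower (blue) genes, and the named genes are the 12 highest and 12 lowest annotated protein coding genes outside predicted models and receptor segments.

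The genes furthest up with M9 included cytoskeletal, adhesion, signalling and stress genes. Myh10, the heavy chain of nonmuscle myosin IIB (chromosome 11, 68691559 to 68816632, mm10), had 282 normalized counts with M9 and 0 with K8, at least 68.7-fold higher, and its transcript of 7791 bases is among the long ones that stood low in the K8 library. Nectin1, a cell adhesion receptor (chromosome 9, 43743984 to 43807461), had 151 with M9 and 0 with K8, at least 36.9-fold higher. In TRP1high, Myh10 had 797 with M9 and 58.0 with K8, and Nectin1 had 107 with M9 and 18.0 with K8, so neither was at 0 there. Crabp2, which carries retinoic acid in the cytosol (chromosome 3, 87948666 to 87953376), had 1644 normalized counts with M9 and 16.3 with K8, a 101-fold difference (interval 57.2 to 194), and 1507 with M9 and 21.1 with K8 in TRP1high. Atf3, a stress-induced transcription factor (chromosome 1, 191170296 to 191218039), had 980 with M9 and 11.9 with K8, 82.6-fold apart (41.7 to 175), while both TRP1high libraries were far above that K8 level, with 2930 with M9 and 841 with K8. Ptpn5, a protein tyrosine phosphatase (chromosome 7, 47077795 to 47133684), had 546 normalized counts with M9 and 4.08 with K8, where it rested on 3 reads, so that its 134-fold difference has an interval of 45.2 to 647.

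Several other genes at this end were low with K8 in TRP1low alone among the 4 libraries. Fzd7, a Wnt receptor (chromosome 1, 59482424 to 59486955), had 202 normalized counts with M9 and 4.10 with K8, and 186 with M9 and 163 with K8 in TRP1high. Mgarp, a mitochondrial protein (chromosome 3, 51388412 to 51396738), had 109 with M9 and 0 with K8, at least 26.7-fold higher, against 230 with M9 and 170 with K8 in TRP1high. Eif4ebp3, a repressor of cap-dependent translation (chromosome 18, 36664060 to 36665917), had 115 with M9 and 0 with K8, at least 28.1-fold higher, and 137 with M9 and 103 with K8 in TRP1high. The gene model AC115631.1 overlaps Eif4ebp3 on the same strand, so its reads are uncertain. Smtnl2 (chromosome 11, 72389164 to 72411713), related to smoothelin, had 102 with M9 and 0 with K8, at least 24.9-fold higher, and 39.4 with M9 and 47.6 with K8 in TRP1high. Pkib, an inhibitor of protein kinase A (chromosome 10, 57631981 to 57741112), had 309 with M9 and 5.79 with K8, 53.4-fold apart (21.8 to 208), but 122 with M9 and 275 with K8 in TRP1high. Tshb (617 with M9 and 6.30 with K8) lies over Tspan2, a tetraspanin gene on the opposite strand that itself had 3115 normalized counts with M9 and 370 with K8. Without a stated strand of counting the reads of Tshb and Tspan2 cannot be told apart. The topmost gene, Hist1h2ao (353 with M9 and 0 with K8), is 1 of a set of near-identical histone H2A copies and is taken up with them.

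The genes furthest down with M9 included a granzyme, surface receptors, enzymes and haemoglobin genes. Gzma, a trypsin-like granzyme (chromosome 13, 113093825 to 113100981), had 7.38 normalized counts with M9 and 876 with K8, a 119-fold lower level (57.5 to 298), and 5.97 with M9 and 82.8 with K8 in TRP1high. Kit, the stem cell factor receptor (chromosome 5, 75574916 to 75656722), had 11.8 with M9 and 987 with K8, 83.7-fold lower (47.6 to 172), and 37.8 with M9 and 58.4 with K8 in TRP1high. Lgals3, a galectin (chromosome 14, 47367751 to 47386160), had 12.5 with M9 and 1059 with K8, 85.0-fold lower (47.9 to 163), while in TRP1high it was the M9 library that held more, with 132 against 48.5 with K8. Il9r, the interleukin 9 receptor (chromosome 11, 32187541 to 32200279), had 0 with M9 and 184 with K8, at least 58.4-fold lower. Ccl1, a chemokine of activated T cells (chromosome 11, 82176657 to 82305690), had 0 with M9 and 181 with K8, at least 57.7-fold lower. In TRP1high neither Il9r (0.614 with M9 and 4.05 with K8) nor Ccl1 (2.98 with M9 and 0 with K8) exceeded 10 normalized counts.

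Plb1, a phospholipase (chromosome 5, 32232708 to 32366520), had 0 normalized counts with M9 and 270 with K8, at least 85.7-fold lower. Pde2a, a cyclic nucleotide phosphodiesterase (chromosome 7, 101421691 to 101512827), had 0 with M9 and 235 with K8, at least 74.8-fold lower. Itga2b, the integrin chain of platelets and megakaryocytes (chromosome 11, 102453297 to 102470122), had 0.605 with M9, under the worth of 1 read, and 149 with K8. With the M9 value rounded to 1 read, the interval of its lower ratio ran from 25.0 to 5665. Capn3, a calpain protease (chromosome 2, 120456019 to 120504913), had 6.51 with M9 and 418 with K8, and 21.3 with M9 and 162 with K8 in TRP1high. Capn3 overlaps Ganc on the same strand, which had 286 with M9 and 597 with K8, so part of its reads may be assigned either way.

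The haemoglobin genes set the K8 library of TRP1low apart. Hba-a2, an alpha globin gene, had 0 normalized counts with M9 and 243 with K8, and its near-identical copy Hba-a1 had 1.28 with M9 and 121 with K8. Hbb-bs, a beta globin gene, had 2.34 with M9 and 214 with K8. The 5 measured erythroid markers summed to 3.62 normalized counts with M9 and 609 with K8, against 9.46 with M9 and 3.18 with K8 in TRP1high, and 3 of them (Hba-a2, Hbb-bt and Alas2) were at 0 with M9 and none with K8. Whether red cell precursors or free RNA entered that library was not tested.

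Of 17 ranked cytotoxic granule genes, 3 were higher with M9 (Prf1, Gzmb and Srgn) and Gzma was lower. Prf1, the pore-forming protein of the granule (chromosome 10, 61297833 to 61304680), had 3007 normalized counts with M9 and 436 with K8, 6.90-fold higher (6.14 to 7.76). Gzmb, the main caspase-cleaving granzyme (chromosome 14, 56258838 to 56262260), had 128160.0 with M9 and 30410.0 with K8, 4.21-fold higher (4.15 to 4.28), and in TRP1high it had 149629 with M9 and 142017 with K8. The TRP1low K8 library was thus the low one of the 4 for Gzmb. Srgn, the proteoglycan that packs granules, had 19492 with M9 and 9186 with K8, 2.12-fold higher. Of 21 measured granule genes 9 lay below 0, and the median difference of 0.09 was close to that of all genes (0.02). In bulk RNA, more cells with a transcript and more transcript per cell cannot be told apart. Lamp1, a lysosomal membrane protein used as a degranulation marker, had 8159 with M9 and 7653 with K8.

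Among the 13 measured TNF superfamily ligands, 2 were higher and 2 lower. Fasl (chromosome 1, 161780689 to 161788495) had 576 normalized counts with M9 and 48.4 with K8, 11.9-fold higher (8.54 to 17.4). Lta, lymphotoxin alpha, had 9759 with M9 and 1986 with K8, 4.91-fold higher (4.65 to 5.20), but 5161 with M9 and 8084 with K8 in TRP1high. Tnf itself differed little, with 455 with M9 and 521 with K8 (difference -0.19). Tnfsf4, the ligand of OX40, had 191 with M9 and 1220.0 with K8, 6.39-fold lower (5.44 to 7.54), and its K8 value was the high one of the 4 libraries, with 275 with M9 and 197 with K8 in TRP1high. Tnfsf10, the death ligand TRAIL, had 209 with M9 and 627 with K8, a difference of -1.58.

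**Figure D2:**
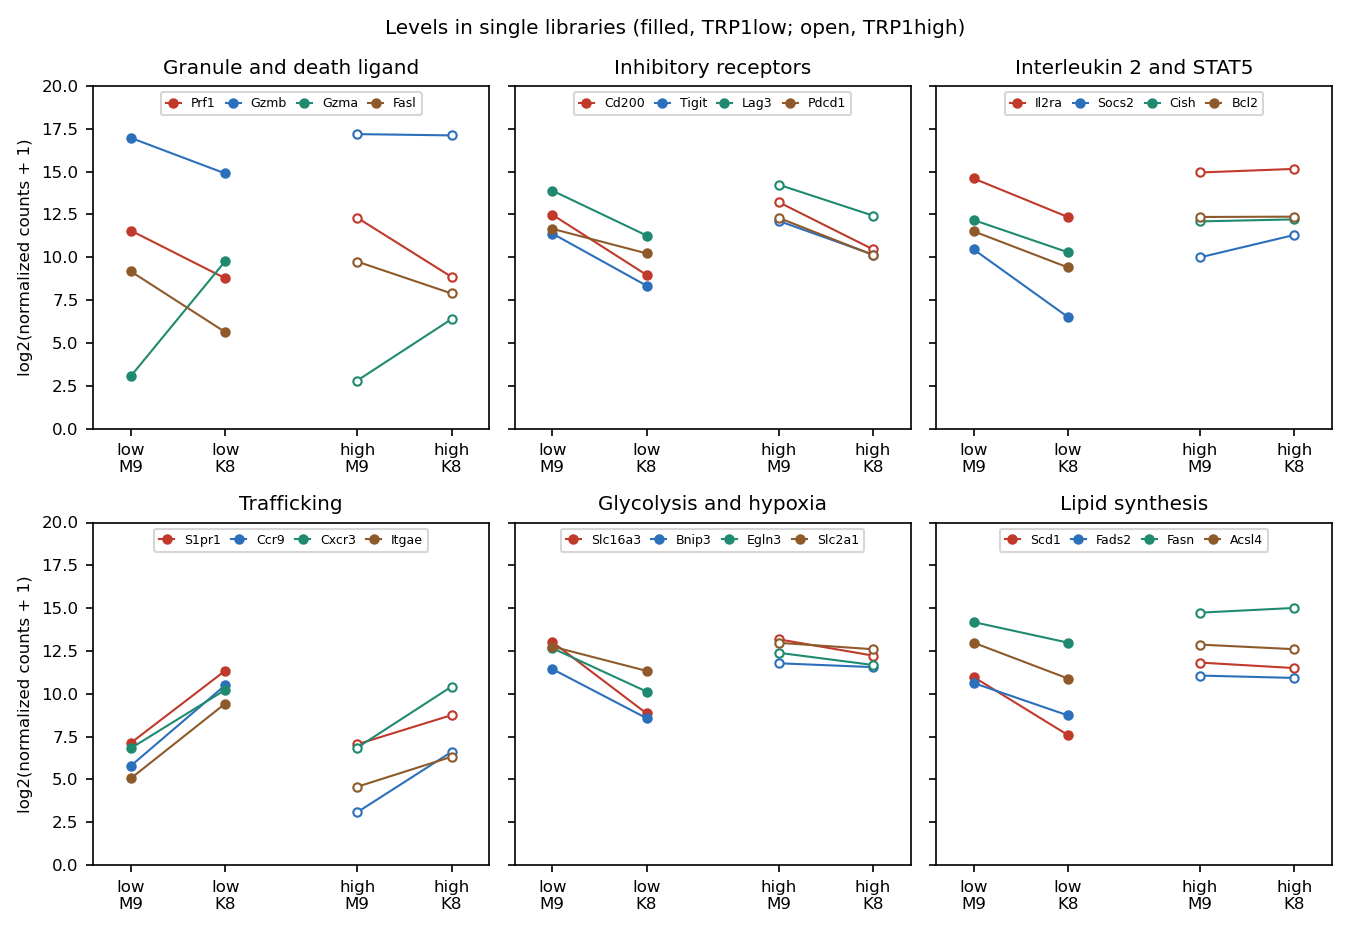
Each point is the log2(normalized counts + 1) of 1 gene in 1 library, with TRP1low filled, TRP1high open, M9 left of K8, and lines joining the 2 libraries of 1 TCR. Il2ra, Bnip3 and Scd1 have their lowest point in the TRP1low K8 library, while Prf1, Cd200, Tigit, Lag3, S1pr1 and Cxcr3 lie in the same direction in both pairs.

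Secreted cytokines were split. Lif, a cytokine of the interleukin 6 family (chromosome 11, 4257557 to 4272514), had 4129 normalized counts with M9 and 481 with K8, 8.58-fold higher (7.69 to 9.59). Its neighbour Osm, oncostatin M, had 556 with M9 and 239.9 with K8, 2.32-fold higher. Ifng had 13898 with M9 and 7609.8 with K8, a difference of 0.87 that stayed under 2-fold, while in TRP1high it had 6839 with M9 and 829 with K8. Il2 did not reach 100 normalized counts in either library (96.5 with M9 and 64.3 with K8). Ebi3, a subunit shared by interleukin 27 and interleukin 35, had 52.4 with M9 and 220.2 with K8, 4.20-fold lower, and Il16 had 2569 with M9 and 5338 with K8, 2.08-fold lower. Of 17 measured cytokines, 6 were ranked, with 2 higher and 2 lower. The median of 0.58 over the 17 changed to -0.38 when values under 3 reads were raised to that floor, so the list has no stable direction.

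The chemokines also went both ways. Ccl4 (chromosome 11, 83662584 to 83664683) had 5607 normalized counts with M9 and 1375 with K8, 4.08-fold higher (3.81 to 4.37), and Ccl3 had 5565 with M9 and 1737 with K8, 3.20-fold higher. Both are induced by TCR signals. Cxcl10, an interferon-induced ligand of Cxcr3, had 14.5 with M9 and 265 with K8, 18.3-fold lower (10.5 to 33.7). Xcl1, which attracts cross-presenting dendritic cells, had 3027 with M9 and 4575 with K8 (difference -0.60), whereas TRP1high had 2528 with M9 and 239 with K8. Of 12 measured chemokines 5 were ranked, with Ccl3 and Ccl4 higher and Ccl1 and Cxcl10 lower.

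The inhibitory and CD28 family receptor list, which also holds ligands such as Cd200, had the most members higher with M9 among the receptor lists. Of its 15 ranked genes, 6 were higher and 1 lower, and 10 of 21 measured genes lay below 0. In TRP1high, 6 of 17 ranked genes were higher and 2 lower. Cd200, a surface ligand of the immunoglobulin family (chromosome 16, 45382135 to 45409053), had 5734 normalized counts with M9 and 499.7 with K8, 11.5-fold higher (10.3 to 12.8). Tigit, an inhibitory receptor for nectins and the poliovirus receptor (chromosome 16, 43648867 to 43664146), had 2677 with M9 and 323 with K8, 8.29-fold higher (7.25 to 9.52). Lag3, which binds MHC class II (chromosome 6, 124904361 to 124911705), had 15207 with M9 and 2469 with K8, 6.16-fold higher (5.87 to 6.47). Ctla4, which competes with Cd28 for CD80 and CD86, had 8491 with M9 and 2865 with K8, 2.96-fold higher, but in TRP1high the K8 library held more, with 10984 with M9 and 15100.5 with K8. Pdcd1, encoding PD-1, had 3237 with M9 and 1197 with K8, 2.70-fold higher, and Btla had 5416 with M9 and 2453 with K8, 2.21-fold higher. Cd96 was the called exception, 2.04-fold lower with 1881 with M9 and 3829.6 with K8. Havcr2, encoding TIM-3, stayed low in both libraries (6.55 with M9 and 34.2 with K8). The costimulatory receptors Cd28 (15819 with M9 and 9285 with K8) and Icos (4011 with M9 and 2108 with K8) had differences of 0.77 and 0.93, under 2-fold. The family median was 0.31, and 0.12 without genes with a coding transcript over 6000 bases, a limit chosen after seeing the data.

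Of 15 ranked TNF receptors, 2 were higher with M9 and 3 lower. Tnfrsf4, the costimulator OX40 (chromosome 4, 156013843 to 156016612), had 6923 normalized counts with M9 and 962 with K8, 7.19-fold higher (6.65 to 7.78), and Tnfrsf18, encoding GITR, had 9862 with M9 and 3520.1 with K8, 2.80-fold higher. Tnfrsf9, encoding 4-1BB, had 8174 with M9 and 5351 with K8, a difference of 0.61, and the costimulator Cd27 had 3380 with M9 and 4253 with K8, a difference of -0.33. Tnfrsf8, encoding CD30 (chromosome 4, 145267137 to 145315164), had 53.1 with M9 and 455 with K8, 8.57-fold lower (6.33 to 11.7), and 37.4 with M9 and 1257 with K8 in TRP1high. Tnfrsf26 had 253 with M9 and 952 with K8, 3.76-fold lower. Tnfrsf14, the receptor that binds Btla, had 61.0 with M9 and 124 with K8, 2.03-fold lower, a call that ended with a pseudocount of 10. OX40 and its ligand thus lay in opposite directions within the same pair of libraries.

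Only 2 of 10 measured killer lectin-like receptors were ranked, and Klrk1, the activating receptor NKG2D (chromosome 6, 129610323 to 129623864), had 709.6 normalized counts with M9 and 148 with K8, 4.79-fold higher (3.92 to 5.95). In TRP1high Klrk1 had 6021 with M9 and 1349 with K8, so all the TRP1low values lay below the lower TRP1high one. Among Ly6 and SLAM genes, Ly6a, the activation marker Sca-1 (chromosome 15, 74994877 to 74998031), had 10042 with M9 and 2457 with K8, 4.09-fold higher, and Slamf1 had 1538 with M9 and 372 with K8, 4.13-fold higher. Slamf6, a marker of the Tcf7-expressing state, had 2166 with M9 and 4952 with K8, 2.29-fold lower. The TCR complex and its proximal kinases were nearly level: of 24 ranked genes Lcp2, the adaptor SLP-76, was higher (9909 with M9 and 4699.8 with K8, 2.11-fold) and none was lower, with a median of 0.05. Cd3e had 5179 with M9 and 3867 with K8, a difference of 0.42.

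Several homing receptors were lower with M9. Of 9 ranked chemokine receptors 6 were lower and 1 higher, and the median over 16 measured was -1.22. The TRP1high pair had 5 of 7 ranked ones lower and none higher, with a median of -0.69. Ccr9, the gut-homing receptor (chromosome 9, 123678439 to 123784330), had 54.6 normalized counts with M9 and 1448 with K8, 26.5-fold lower (20.1 to 35.8). Cxcr3, the receptor of effector cells for interferon-induced chemokines (chromosome X, 101731535 to 101734269), had 112 with M9 and 1197 with K8, 10.7-fold lower (8.72 to 13.2). Cxcr5, the follicle-homing receptor, had 329.7 with M9 and 1856 with K8, 5.63-fold lower, and Cxcr4, the receptor for Cxcl12, had 222 with M9 and 1241 with K8, 5.58-fold lower. Ccr8 (27.3 with M9 and 139.5 with K8) was 5.12-fold lower and Cxcr6 (132 with M9 and 501 with K8) 3.79-fold lower. Ccr7, the lymph node homing receptor, was near level at 19149.6 with M9 and 15862 with K8.

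The egress genes followed the same direction in part. S1pr1, the receptor that lets lymphocytes leave lymph nodes (chromosome 3, 115710433 to 115715072), had 139 normalized counts with M9 and 2609.6 with K8, 18.7-fold lower (15.7 to 22.5). Klf2, the transcription factor that drives S1pr1, had 236 with M9 and 1046 with K8, 4.43-fold lower, and Gpr55, a lipid receptor, had 44.1 with M9 and 253 with K8, 5.74-fold lower. Cd69, which pulls the S1pr1 protein off the surface, had 3794 with M9 and 3021 with K8. All 9 measured egress genes were ranked, with none higher and 3 lower. The TRP1high pair had 4 of 9 lower and none higher, and S1pr1, Klf2 and Gpr55 were among those lower there. Among 10 ranked integrin chains, Itgae, the CD103 chain of epithelium-resident T cells (chromosome 11, 73090583 to 73147446), had 32.5 with M9 and 688 with K8, 21.2-fold lower (14.7 to 31.5). Itga4, the chain of VLA-4, had 1533 with M9 and 6389 with K8, 4.17-fold lower (3.93 to 4.42), and no integrin chain was called higher.

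Of 25 ranked transcription factors of the first response to the TCR, 6 were higher with M9 and none lower, with 21 of 26 measured genes above 0. Nr4a3, an orphan nuclear receptor induced by TCR signals (chromosome 4, 48045153 to 48086447), had 15033 normalized counts with M9 and 1910.1 with K8, 7.87-fold higher (7.45 to 8.32). Nr4a2 had 106 with M9 and 34.1 with K8, 3.11-fold higher, and Nr4a1 had 4090.4 with M9 and 2187 with K8, a difference of 0.90. Irf4, whose level follows TCR signal strength in CD8 T cells (chromosome 13, 30749226 to 30766976), had 25719 with M9 and 7678 with K8, 3.35-fold higher (3.25 to 3.45). The AP-1 members Fosl1 (129 with M9 and 26.0 with K8, 4.96-fold), Fosl2 (660.4 with M9 and 186 with K8, 3.56-fold) and Batf3 (900.4 with M9 and 312 with K8, 2.89-fold) were also higher. Fos was level at 117 with M9 and 117 with K8, and Myc had 11845 with M9 and 7048 with K8, a difference of 0.75. The median of 0.67 was matched in size by 0.75 in TRP1high, where 9 of 25 were higher.

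Of 28 ranked feedback inhibitors of receptor signalling, 9 were higher with M9 and 3 lower, with a median of 0.51 over 30 measured. The TRP1high pair had 8 of 28 higher and 1 lower, with a median of 0.83. Spry1, an inhibitor of the MAP kinase pathway (chromosome 3, 37639947 to 37644598), had 824 normalized counts with M9 and 63.8 with K8, 12.9-fold higher (9.55 to 17.6). The ERK phosphatases Dusp4 (1432 with M9 and 295 with K8, 4.85-fold) and Dusp6 (1012 with M9 and 235 with K8, 4.31-fold) were higher as well, while Dusp2 and Dusp10, phosphatases of the same family, had differences of -0.11 and -0.85. Also higher was Ndrg1 (1047 with M9 and 297 with K8, 3.53-fold), an anergy-linked gene that is also induced by hypoxia. Another 5 called members were higher by log2 differences of 1.03 to 1.62, among them Cd5 (3112 with M9 and 1013 with K8), a surface inhibitor of TCR signalling. Tnfaip3, the ubiquitin-editing enzyme A20 that restrains NF-kB, had 787 with M9 and 2148 with K8, 2.73-fold lower (2.50 to 2.98), and Nfkbie, an NF-kB inhibitor, had 636 with M9 and 1433 with K8, 2.26-fold lower. Nfkbia, its relative, was not called (2179 with M9 and 4046 with K8, difference -0.89). In TRP1high Tnfaip3 and Nfkbie went the other way within 2-fold, with Tnfaip3 at 733 with M9 and 413 with K8. Ubash3a, a phosphatase-like suppressor of TCR signalling, had 2226 with M9 and 4745 with K8, 2.13-fold lower. Ubash3b, its relative, was among the higher genes (1258 with M9 and 482 with K8).

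Of 27 ranked effector and memory transcription factors, 7 were lower and 1 higher. The TRP1high pair had 6 of 28 lower and 3 higher. Bcl6, a transcriptional repressor that promotes the follicular helper and memory programs (chromosome 16, 23965052 to 23988852), had 16.7 normalized counts with M9 and 266 with K8, 15.9-fold lower (9.49 to 28.2). Ikzf2, encoding Helios, had 273 with M9 and 1348 with K8, 4.94-fold lower, and Gata3, which also supports CD8 T cell maintenance, had 122 with M9 and 549 with K8, 4.49-fold lower. Tcf7, encoding TCF-1 (chromosome 11, 52252371 to 52283014), had 10136 with M9 and 21472 with K8, 2.12-fold lower (2.07 to 2.17). Id2 (726 with M9 and 1926 with K8, 2.65-fold), Runx1 (82.2 with M9 and 224 with K8, 2.72-fold) and Rora (94.6 with M9 and 269 with K8, 2.84-fold) were lower too. Id2 belongs to effector differentiation, so the lower genes did not all stand for memory. Klf6 was higher (7151 with M9 and 3029 with K8, 2.36-fold), and Tbx21, encoding T-bet, was near level with 3847 with M9 and 3170.4 with K8 (difference 0.28).

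The interleukin 2 receptor and STAT5 response genes had 5 of 14 measured and ranked genes higher with M9 in TRP1low and none lower, with 6 of the 14 below 0. In TRP1high none was higher and 2 were lower, Socs2 and Socs3. Il2ra, the high-affinity chain CD25 (chromosome 2, 11642807 to 11693193), had 24817 normalized counts with M9 and 5216 with K8, 4.76-fold higher (4.6 to 4.92), beside 31658 with M9 and 36584 with K8 in TRP1high. Socs2, a STAT5-induced suppressor of cytokine signalling (chromosome 10, 95385362 to 95417180), had 1406 with M9 and 90.0 with K8, 15.6-fold higher (12.2 to 20.2), whereas TRP1high had 1018 with M9 and 2524 with K8. Cish, its relative (chromosome 9, 107296026 to 107302784), had 4618 with M9 and 1252 with K8, 3.69-fold higher (3.44 to 3.97), beside 4374 with M9 and 4743 with K8 in TRP1high. The survival gene Bcl2 (2926 with M9 and 678 with K8, 4.32-fold) and the kinase gene Pim1 (6052 with M9 and 2035 with K8, 2.97-fold) were higher, beside 5228 with M9 and 5294 with K8 for Bcl2 in TRP1high. Bcl2 has a long transcript (7191 bases). In all 5 genes the TRP1low K8 library also lay below both TRP1high libraries, while its place below TRP1low M9 follows from the call. Il2rb, the shared beta chain, went the other way within 2-fold, with 15787 with M9 and 24694 with K8.

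The promoter of Cish is shown because Cish was among the higher STAT5 response genes and because it holds a known form of STAT site, TTCNNNGAA. It is the RefSeq window of 250 bases before to 50 after the start (GRCm38.p6), written along the gene, with the 2 matches in capitals.
Cish, chr9:107296409-107296708, plus strand: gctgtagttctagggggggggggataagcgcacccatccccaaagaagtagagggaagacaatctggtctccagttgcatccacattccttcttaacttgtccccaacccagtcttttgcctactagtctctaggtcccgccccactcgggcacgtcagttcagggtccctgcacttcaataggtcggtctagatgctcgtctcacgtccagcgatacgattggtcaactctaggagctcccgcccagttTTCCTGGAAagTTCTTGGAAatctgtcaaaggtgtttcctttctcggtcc
Of 12 genes of the list with a window, Cish and Socs3 held the motif on either strand (16.7%), against 8.39% of 7787 ranked genes with a window. Socs3, another suppressor of cytokine signalling, had 686 normalized counts with M9 and 895 with K8 (difference -0.38), beside 558 with M9 and 1171 with K8 in TRP1high (-1.07). A match is a description of the letters and was not tied to binding here.

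Other cytokine receptor chains were mostly lower, with 20 of 26 measured chains below 0 and a median of -0.50. Il12rb2 (chromosome 6, 67291318 to 67376188), the signalling chain of the interleukin 12 receptor, was an exception with 7123 normalized counts with M9 and 1886 with K8, 3.78-fold higher (3.56 to 4.0), and Il12rb1 had 3968 with M9 and 1752 with K8, 2.27-fold higher. Il7r, which sustains naive and memory cells (chromosome 15, 9505788 to 9530176), had 623 with M9 and 2484 with K8, 3.99-fold lower (3.63 to 4.38). Il6st, encoding the shared chain gp130, had 1053 with M9 and 5545 with K8, 5.26-fold lower (4.91 to 5.65). Il1rl1, the alarmin receptor ST2, had 17.4 with M9 and 118 with K8, 6.77-fold lower, and Tgfbr2 had 1373 with M9 and 3034 with K8, 2.21-fold lower. With Il9r, 5 of 23 ranked chains were lower and 2 higher. The TRP1high pair had 5 of 22 lower and 1 higher, with a median of -0.41. Ifnar1, a chain of the type I interferon receptor, had 1241 with M9 and 1780.5 with K8, a difference of -0.52.

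Sugar metabolism genes were higher with M9 across the family. All 23 measured glycolysis and sugar transport genes had a difference above 0 (0.22 to 4.17), 7 of 22 ranked genes were at least 2-fold higher, none was lower, and the median was 0.65. In TRP1high none of 22 reached 2-fold and the median was 0.35. Slc16a3, the lactate exporter MCT4 (chromosome 11, 120948480 to 120960868), had 8322 normalized counts with M9 and 461 with K8, 18.1-fold higher (16.2 to 20.2), beside 9271 with M9 and 4802 with K8 in TRP1high. Slc2a1, the glucose transporter GLUT1, had 6919 with M9 and 2583 with K8, 2.68-fold higher (2.55 to 2.82), and Aldoc, an aldolase, had 124 with M9 and 17.9 with K8, 6.93-fold higher (3.92 to 13.5). Hexokinase Hk2 (5172 with M9 and 2523 with K8, 2.05-fold), phosphofructokinase Pfkp (19036 with M9 and 9107 with K8, 2.09-fold), the phosphofructokinase regulator Pfkfb4 (135 with M9 and 59.3 with K8, 2.28-fold) and the isomerase Tpi1 (45644 with M9 and 22391 with K8, 2.04-fold) were just over 2-fold. Hk2 and Tpi1 came under 2-fold when the libraries were set to the same sum. Gapdh (104270.0 with M9 and 66606 with K8, difference 0.65) and Ldha (194933 with M9 and 156658 with K8, difference 0.32) were higher by less.

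Hypoxia-responsive genes gave the same picture, with 7 of 20 ranked genes higher, none lower, 21 of 23 measured above 0 and a median of 0.75, against 0.32 and no called gene in TRP1high. Bnip3, a mitophagy receptor (chromosome 7, 138890836 to 138909519), had 2782 normalized counts with M9 and 379 with K8, 7.33-fold higher (6.48 to 8.34), beside 3515 with M9 and 3008 with K8 in TRP1high. P4ha2, a collagen prolyl hydroxylase (chromosome 11, 54100095 to 54131665), had 245 with M9 and 34.1 with K8, 7.18-fold higher (4.74 to 11.3). Egln3, the oxygen-dependent hydroxylase of HIF, had 6485 with M9 and 1117 with K8, 5.80-fold higher (5.39 to 6.25), and Ak4, a mitochondrial adenylate kinase, had 2346 with M9 and 609 with K8, 3.85-fold higher. Vegfa (556 with M9 and 157 with K8, 3.53-fold), Mxi1 (1066 with M9 and 376 with K8, 2.84-fold) and Hilpda (1539.7 with M9 and 664 with K8, 2.32-fold) completed the called genes. Hif1a itself had 8033 with M9 and 6004 with K8, a difference of 0.42, and Pdk1 (6298 with M9 and 6766 with K8) was the ranked member furthest below 0, at -0.10. For each of the 7 called hypoxia genes the TRP1low K8 library also lay below both TRP1high libraries, while its place below TRP1low M9 follows from the call.

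The promoters of Slc16a3, Bnip3 and P4ha2 are shown since these genes led the 2 lists and each holds the core of a hypoxia response element, ACGTG. They are RefSeq windows (GRCm38.p6) along the gene with ACGTG on either strand in capitals, and in Bnip3 the 2 matches overlap as CACGTG.
Slc16a3, chr11:120948817-120949116, plus strand: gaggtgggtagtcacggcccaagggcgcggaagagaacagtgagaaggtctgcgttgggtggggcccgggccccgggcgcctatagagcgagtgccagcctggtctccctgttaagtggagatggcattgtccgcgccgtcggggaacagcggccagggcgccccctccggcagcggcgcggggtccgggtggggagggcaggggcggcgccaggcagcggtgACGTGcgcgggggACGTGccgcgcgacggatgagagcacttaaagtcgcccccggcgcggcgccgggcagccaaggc
Bnip3, chr7:138909457-138909756, minus strand: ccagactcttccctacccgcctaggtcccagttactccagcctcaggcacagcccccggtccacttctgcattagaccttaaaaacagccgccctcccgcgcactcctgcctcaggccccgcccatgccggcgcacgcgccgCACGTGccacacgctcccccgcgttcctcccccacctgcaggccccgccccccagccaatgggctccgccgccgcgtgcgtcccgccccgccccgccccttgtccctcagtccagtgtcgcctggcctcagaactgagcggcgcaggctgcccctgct
P4ha2, chr11:54100674-54100973, plus strand: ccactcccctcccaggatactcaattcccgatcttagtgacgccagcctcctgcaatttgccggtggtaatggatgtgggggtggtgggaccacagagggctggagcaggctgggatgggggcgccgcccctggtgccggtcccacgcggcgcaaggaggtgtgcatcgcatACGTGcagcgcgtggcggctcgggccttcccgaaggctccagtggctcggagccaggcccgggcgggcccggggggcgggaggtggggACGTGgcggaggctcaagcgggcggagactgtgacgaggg
ACGTG stood in 16 of 21 hypoxia windows (76.2%) and 14 of 22 glycolysis windows (63.6%), against 30.5% of 7787 ranked genes and 21.8% of all 27025 windows. The lists were assembled from known targets of HIF, so the share describes the lists and not these cells.

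Of 12 ranked fatty acid synthesis genes, 5 were higher with M9 in TRP1low and none lower, and none was called in TRP1high. Scd1, a stearoyl-CoA desaturase (chromosome 19, 44394455 to 44407879), had 2016 normalized counts with M9 and 191 with K8, 10.5-fold higher (8.86 to 12.6), beside 3616 with M9 and 2896 with K8 in TRP1high. Acsl4, which activates polyunsaturated fatty acids, had 8084 with M9 and 1896 with K8, 4.26-fold higher (4.03 to 4.52), and Fads2, a fatty acid desaturase, had 1578 with M9 and 425 with K8, 3.71-fold higher. Fasn, the fatty acid synthase, had 18623 with M9 and 8106 with K8, 2.30-fold higher (2.23 to 2.37), and Scd2 had 32574 with M9 and 14182 with K8, also 2.30-fold, whereas in TRP1high both had more with K8 (27303 with M9 and 32991 with K8 for Fasn). The median of the 13 measured genes was 0.56, against -0.27 in TRP1high.

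The sterol genes differed by less per gene. Of 27 measured genes, 25 had a difference above 0, with a median of 0.56 against 0.04 in TRP1high. Of 25 ranked genes 2 were higher at 2-fold and none lower, and Pmvk of the mevalonate pathway was one of them (3194 with M9 and 1229 with K8, 2.60-fold, 2.41 to 2.80). Insig1, the sterol sensor that is itself a target of SREBP, had 4288 with M9 and 2147 with K8 and lay just under the call. Hsd17b7 (1217 with M9 and 1439 with K8) was the lowest, at -0.24. CCAAT, the NF-Y motif known to accompany sterol elements, stood in 17 of 18 sterol windows (94.4%), against 43.8% of ranked genes. The sterol element itself, searched in 1 form, stood in 0 of these 18 windows and in 0 of 10 fatty acid windows. Among ranked genes it stood in 13 of 7787 windows (0.17%). The CCAAT share describes the list and was not tied to binding in these cells.

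**Figure D3:**
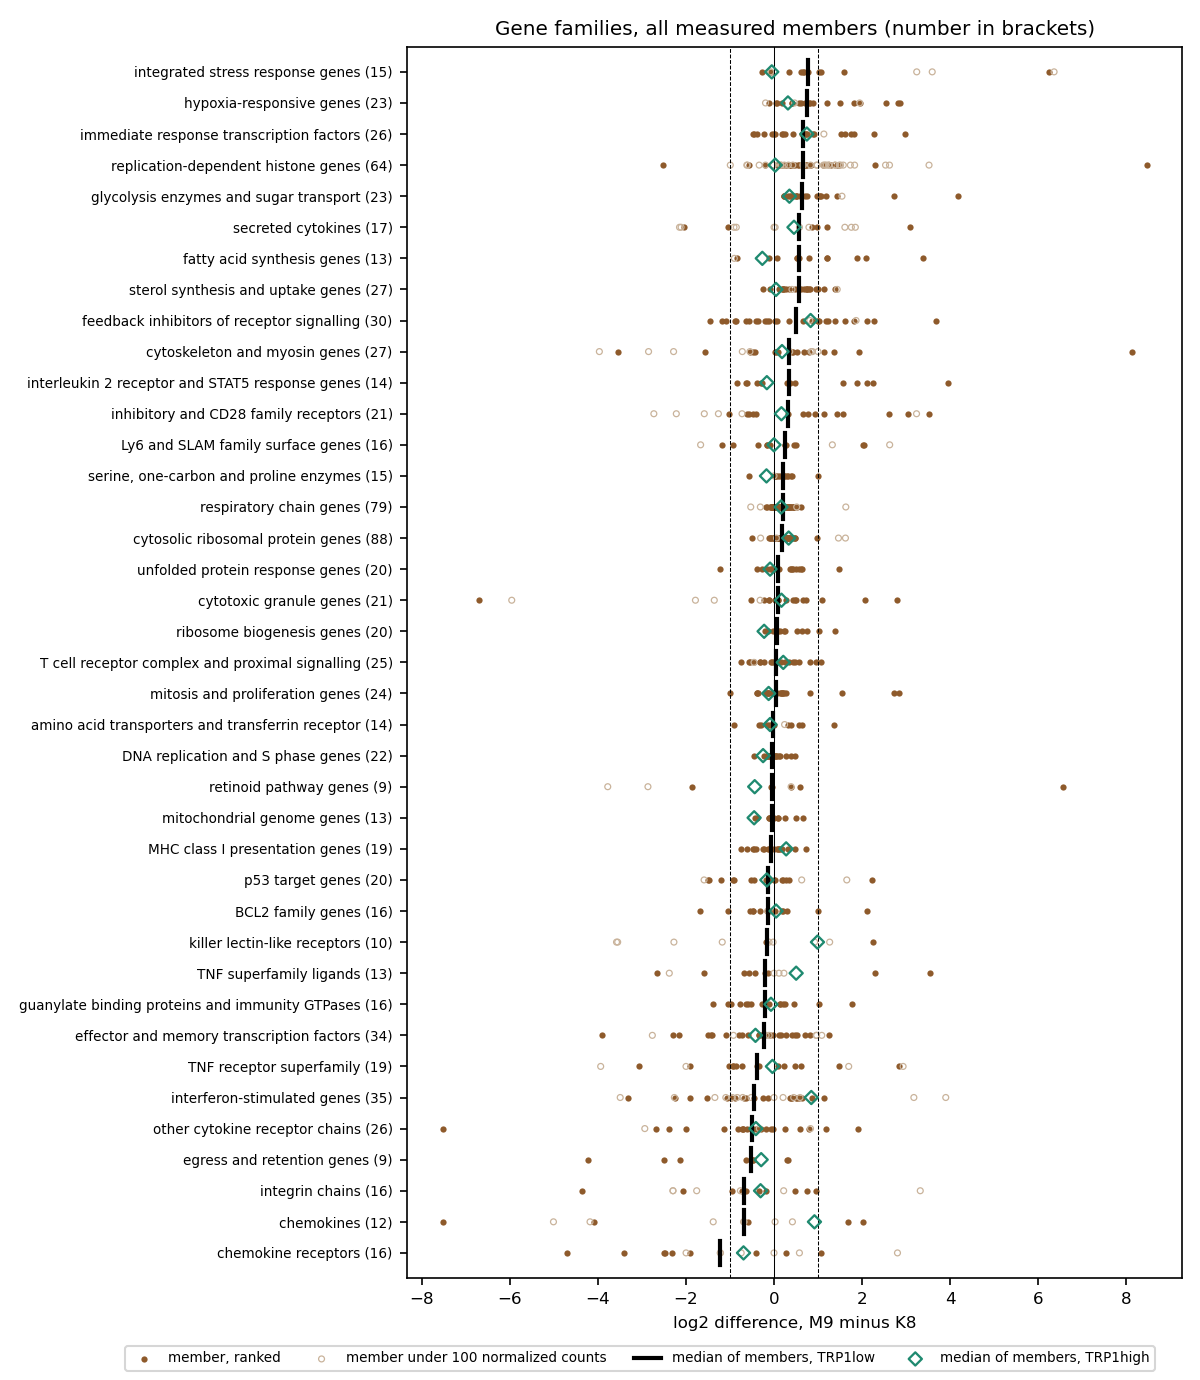
Each row is a gene family, with every measured member at its log2 difference, M9 minus K8, in TRP1low (filled, ranked; open, under 100 normalized counts), the TRP1low median as a bar and the TRP1high median as a diamond. Integrated stress (0.76), hypoxia (0.75), immediate response (0.67) and glycolysis (0.65) medians lie to the right, and chemokine receptors (-1.22) to the left. Several lists, among them fatty acid, interferon and chemokine, have TRP1low and TRP1high medians on opposite sides of 0.

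Of 11 ranked genes of the integrated stress response, 4 were higher with M9 and none lower, led by Atf3. Chac1, a glutathione-degrading enzyme (185 normalized counts with M9 and 60.2 with K8, 3.07-fold, 2.19 to 4.37), Trib3 (380 with M9 and 179 with K8, 2.12-fold) and Cebpb (139 with M9 and 68.4 with K8, 2.04-fold) were called as well, and Atf4, the central factor, had 9580.0 with M9 and 5642 with K8, a difference of 0.76. The median of the 15 measured genes was 0.76, against -0.05 in TRP1high. Vldlr, at 81.3 with M9 and 0 with K8, was under the ranking minimum. Amino acid supply genes differed little: among serine, one-carbon and proline enzymes 1 of 14 was called (Pycr1, 538 with M9 and 267 with K8, 2.01-fold), and among amino acid transporters 1 of 13 (Slc6a9, a glycine transporter, 200 with M9 and 77.7 with K8, 2.57-fold). Calls of Cebpb and Pycr1 ended when the libraries were set to the same sum. In the unfolded protein response Xbp1 was higher (6289 with M9 and 2252 with K8, 2.79-fold) and its activating sensor Ern1 lower (75.9 with M9 and 179 with K8, 2.36-fold), with a median of 0.10 over 20 genes.

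Of 21 ranked interferon-stimulated genes, 5 were lower with M9 in TRP1low and 1 higher, with a median of -0.45 over 35 measured. In TRP1high the list had 14 of 27 higher, none lower and a median of 0.85. Rtp4, an antiviral gene (chromosome 16, 23520291 to 23614222), had 16.7 normalized counts with M9 and 174 with K8, 10.4-fold lower (6.13 to 18.7). The RNA sensors Ddx58, encoding RIG-I (176 with M9 and 849 with K8, 4.81-fold), Dhx58 (58.7 with M9 and 170.2 with K8, 2.90-fold) and Ifih1, encoding MDA5 (219.7 with M9 and 459 with K8, 2.09-fold), were lower together. Irf7, the amplifier of type I interferon (chromosome 7, 141262706 to 141266481), had 71.2 with M9 and 272 with K8, 3.81-fold lower (2.88 to 5.10), against 512 with M9 and 91.1 with K8 in TRP1high. Isg15 was the exception, with 125 with M9 and 56.1 with K8 (2.23-fold higher), and 1523 with M9 and 114 with K8 in TRP1high.

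The interferon-gamma-induced GTPases were mixed, with Iigp1 (3206 with M9 and 933 with K8, 3.44-fold) and Gbp5 (3672 with M9 and 1803 with K8, 2.04-fold) higher and Gbp8 (205 with M9 and 535 with K8, 2.61-fold) and Gbp3 (888 with M9 and 1837 with K8, 2.07-fold) lower. The call of Gbp5 ended when the libraries were set to the same sum. The median over 16 genes was -0.20. None of the 19 MHC class I presentation genes was called, and their differences ran from -0.74 to 0.72.

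Growth and cell cycle lists held few called genes. None of 22 replication genes was called (-0.46 to 0.48), nor any of 75 ranked respiratory chain genes, 84 cytosolic ribosomal protein genes or 13 genes of the mitochondrial genome. The ribosomal protein and respiratory chain medians were both 0.19. Of 24 mitosis genes 3 were higher and none lower, with a median of 0.04: Cenpf (484 normalized counts with M9 and 66.6 with K8, 7.26-fold), Cenpe (724 with M9 and 109 with K8, 6.65-fold) and Mki67 (1263 with M9 and 435 with K8, 2.90-fold). Top2a and Ccnb1 were under 2-fold, with 14016 with M9 and 7980.4 with K8 for Top2a and 8667 with M9 and 8843 with K8 for Ccnb1. The 3 called mitosis genes have long transcripts (7910 to 11130 bases), a class that stood low in the TRP1low K8 library. In ribosome biogenesis, Ncl, encoding nucleolin (122172 with M9 and 46859.5 with K8, 2.61-fold), and Nolc1 (5829 with M9 and 2890.1 with K8, 2.02-fold) were called among 20, and Nolc1 ended under 2-fold with the same sum. The longest coding transcript of Ncl has 8202 bases.

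Of 15 ranked BCL2 family genes 1 was higher and 2 were lower, with a median of -0.14 over 16 measured. The higher one was Bcl2, which has a long transcript. The pro-apoptotic Bmf (50.7 normalized counts with M9 and 164 with K8, 3.24-fold, 2.31 to 4.66) and Bcl2l11, encoding BIM (1851 with M9 and 3834 with K8, 2.07-fold), were lower. The p53 targets Trp53inp1 (1900.2 with M9 and 5342 with K8, 2.81-fold), Sesn1 (1023 with M9 and 2829 with K8, 2.77-fold) and Gadd45b (1002 with M9 and 2319 with K8, 2.31-fold) were lower and Perp (1270.1 with M9 and 271 with K8, 4.69-fold) was higher. Of 17 ranked p53 targets, 3 were thus lower and 1 higher, with a median of -0.14 over 20 measured. Trp53inp1 and Sesn1 are also known FOXO targets. In the cytoskeleton list, Anxa2 (1908 with M9 and 496 with K8, 3.85-fold), Myh9 (2519 with M9 and 985 with K8, 2.56-fold) and Myo1c (1603 with M9 and 726 with K8, 2.21-fold) joined Myh10, of which Myh9 and Myh10 have transcripts over 6000 bases, while Myo1f, a myosin of immune cells (43.4 with M9 and 513 with K8, 11.8-fold, 8.63 to 16.9), and Lmna, encoding lamin A (55.1 with M9 and 166 with K8, 3.01-fold), were lower. Of 18 ranked cytoskeleton genes, 4 were thus higher and 2 lower. The cytoskeleton median of 0.35 dropped to 0.04 without genes with a coding transcript over 6000 bases. Of 6 ranked retinoid genes Crabp2 was higher and Rxra, a partner of the retinoic acid receptors, lower (573 with M9 and 2093 with K8, 3.66-fold, 3.31 to 4.04). The retinoid median was -0.04 over 9 measured.

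Of the 64 measured replication-dependent histone genes, 54 had a difference above 0, with 6 of 32 ranked genes higher, 1 lower and a median of 0.65, against 0.03 in TRP1high. Hist1h1b, a linker histone, had 119 normalized counts with M9 and 23.3 with K8, 5.10-fold higher (3.05 to 9.06), followed by Hist1h2bg (163 with M9 and 57.4 with K8, 2.83-fold), Hist1h1d (135 with M9 and 49.2 with K8, 2.75-fold), Hist1h1c (175 with M9 and 71.1 with K8, 2.46-fold) and Hist1h3f (113 with M9 and 52.0 with K8, 2.18-fold). The call of Hist1h3f ended with a pseudocount of 10. Hist1h2ao had 353 with M9 and 0 with K8 while its near-identical copy Hist1h2ap had 35.7 with M9 and 211 with K8, and reads of such copies can be split between them by the counting. Their sum was 389 with M9 and 211 with K8, a ratio of 1.85, and all 14 measured Hist1h2a genes summed to 1992 with M9 and 1604 with K8, a ratio of 1.24. The at least 86.1-fold difference of Hist1h2ao is therefore uncertain. All 64 genes summed to 9748 with M9 and 6819 with K8, against 5344 with M9 and 5720 with K8 in TRP1high. These mRNAs lack a poly(A) tail, and how the libraries were selected is not given in the sources used here, so the part of library preparation in the histone values was not tested.

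The number of higher genes depended on transcript length in this pair of libraries. Ranked genes were split into 10 groups of like size by their longest annotated coding transcript (GENCODE M21), which need not be the form that these cells transcribe. In the group of longest transcripts (6627 to 123179 bases), 12.3% were higher with M9 and 5.37% lower, against 3.30% and 2.17% in the group of shortest ones. In TRP1high, 2.69% of the longest group were higher. Over 6000 bases, 142 of 1269 genes (11.2%) were higher, against 365 of 8404 (4.34%) up to that length. The excess was steepest for long transcripts rich in A and G: over 6000 bases and over 54% purine, limits chosen after seeing the data, 31 of 82 genes (37.8%) were higher and 3 lower, with a median of 0.79, and in TRP1high 1 of these 82 (1.22%) was higher, with a median of -0.10. Tpr, a nuclear pore basket protein with a transcript of 7480 bases and 58.9% purine, had 5513 normalized counts with M9 and 405 with K8, beside 10954 with M9 and 7884 with K8 in TRP1high. Chd7, a chromatin remodeller (10216 bases), had 1202 with M9 and 217 with K8, beside 3257 with M9 and 3029 with K8 in TRP1high. Ubr4, a ubiquitin ligase (15928 bases), had 2792 with M9 and 569 with K8, beside 7064 with M9 and 5869 with K8 in TRP1high. Of the 142 long higher genes, 133 had their lowest value of the 4 libraries in TRP1low with K8, and so had 324 of the 365 shorter ones. Being called higher already placed TRP1low K8 below TRP1low M9, so these counts bear only on its place against the TRP1high libraries. Cenpe (7910 bases, 60.7% purine), Cenpf (11130, 59.0%), Mki67 (10061, 58.8%), Myh10 (7791, 57.2%), Myh9 (7433, 56.7%), Ncl (8202) and Bcl2 (7191) are among the long genes named above. The part of transcript length in their differences was not tested. Without genes over 6000 bases, 397 genes were higher and 431 lower.

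**Figure D4:**
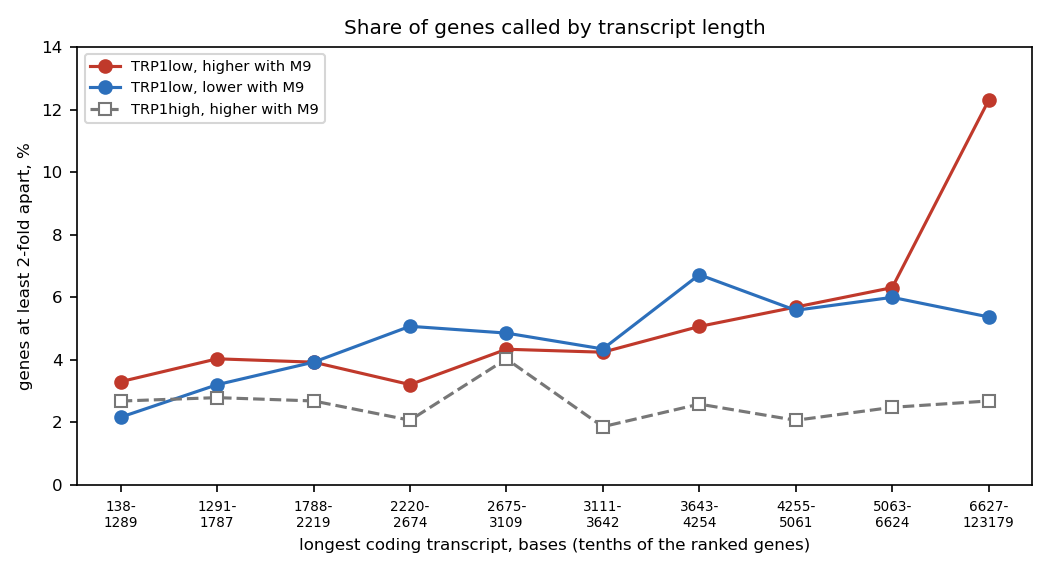
The share of ranked genes at least 2-fold apart (y axis, %) is shown for 10 groups of ranked genes by longest coding transcript in bases (x axis), with genes higher with M9 in TRP1low (red), lower in TRP1low (blue) and higher in TRP1high (grey, dashed). The higher share in TRP1low reaches 12.3% in the longest group, while TRP1high stays at 2.69% there.

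B cells shared the culture with the T cells before the sort, and markers of other cells differed between the libraries. The 24 B cell markers summed to 18452 normalized counts with M9 and 21947 with K8, most of it Ighm (16446 with M9 and 18149 with K8), and 5 of 10 ranked markers were lower with M9 and 1 higher, with a median of -1.15. Igkc, the kappa light chain constant gene, had 74.5 with M9 and 531 with K8, Spib 13.5 with M9 and 329.7 with K8, Cd74 375 with M9 and 1252 with K8, and Cr2 0 with M9 and 14 with K8. The median of the same list was -3.62 in TRP1high, where sums were 18021 with M9 and 22975 with K8. The 13 measured myeloid and dendritic markers summed to 174 with M9 and 497 with K8, with Siglech at 0 with M9 and 31.3 with K8 and S100a8 at 0 with M9 and 16.4 with K8. The 5 measured gamma delta T and NK markers summed to 14306 with M9 and 11632 with K8, most of it Nkg7 (11549 with M9 and 8170 with K8). The other 4 lay below 0, among them Trdc (795 with M9 and 1179 with K8), and the list median was -0.21. The 5 CD4 markers summed to 140 with M9 and 75.4 with K8, none of them ranked. Of 6 measured plasma cell markers 2 were called, Irf4 and Xbp1, which T cells also transcribe. The B cell, myeloid and erythroid lists were thus lower with M9 at their medians (-1.15, -1.65 and -5.73), and the lower chemokine receptors, Cxcl10, Bcl6, Kit and Lgals3 are transcribed by such cells as well. The part of other cells in these genes was not tested.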

How the data were processed

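RNA sequencing of 4 libraries of mouse T cells was analysed, of which the TRP1low pair, 1 library per peptide, forms the comparison. Groups come from the sample titles. The unit is log2 normalized counts, deposited by the authors with 1 column per library, as the file headers name it. From the values, these are log2 of an estimated count divided by a size factor, plus a pseudocount of 1. Salmon 0.8.2, DESeq2 1.20.0 and mm10 appear in the submitters' processing notes, and which annotation, strand setting and filters were used is not given in the sources used here.

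From the files, Python 3.11.15 with pandas 2.3.3, SciPy 1.17.1 and matplotlib 3.10.9 was used to undo the logarithm, rank genes by the minimum of 100 normalized counts in either TRP1low library, and call genes at a log2 difference of 1 or more in size. Folds are ratios without the pseudocount. Estimated reads came from the spacing of low values. Between 56.2% and 56.4% of values up to 50 normalized counts lay within 0.01 of a whole read, so whole reads were not recovered and no count test was run. The calculations were tested on simulated whole reads, which leaves out fractional reads and error in assigning reads to genes.

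Of 16338 rows, 16196 had a symbol in GENCODE M21 (GRCm38), used for positions and transcript lengths. Another 20 rows carried date-like names. Members, the 39 families and the 7 marker lists were chosen with earlier results of these data known. Named genes were the 12 highest and 12 lowest ranked protein coding genes, without predicted models and receptor segments, every called family member (beyond 8, the 4 highest and 4 lowest), some well known members near 0, and genes at the ranking edge. Further genes named within families, with long transcripts or among markers were chosen after their values were seen, and their values are descriptive. Promoter windows are from RefSeq (GRCm38.p6), and motifs were searched on both strands. A few genes of the lists are counted with their family but are not reported here by name.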

Additional observations from a re-analysis of the deposited data

Results flagged for a closer look

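In 5 named genes the peptide difference (log2, M9 minus K8) lay on opposite sides of 0 in the TCRs, each at least 2-fold. No test of the difference between the TCRs could be made with 1 library per group, so none of these was tested. Pkib, a protein kinase A inhibitor, was at 5.51 in TRP1low and -1.17 in TRP1high. Socs2, a suppressor of cytokine signalling, was at 3.95 in TRP1low and -1.31 in TRP1high. Lgals3, a galectin, was at -6.30 in TRP1low and 1.43 in TRP1high. Irf7 and Ifih1, genes of the interferon response, were at -1.92 and -1.06 in TRP1low and at 2.48 and 1.16 in TRP1high.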

How the results depend on the processing

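No paired analysis was possible because each group held 1 library, and for the same reason no replicate could be left out. With a minimum of 10 normalized counts, 1235 genes were higher and 1196 lower. With a minimum of 1000, 177 were higher and 155 lower. The other settings kept both counts within 1.5 times: 516 higher and 518 lower with the median difference set to 0, 479 and 571 with the same sum of normalized counts, 534 and 509 with the same upper quartile, 503 and 471 with a pseudocount of 10, 546 and 499 with values under 3 reads raised to that floor, 500 and 443 for protein coding genes only, and 397 and 431 without transcripts over 6000 bases, which was chosen after seeing the data. The same sum moved the median of ribosome biogenesis genes to 0.0057 and that of cytosolic ribosomal protein genes to 0.12, and it turned the small median of the T cell receptor complex to -0.01 and of mitosis genes to -0.02. Of 166 named genes, 158 were called, 8 of these came under 2-fold in at least 1 of 5 settings, and none reversed. Of 46 lists, 27 had a median at least 0.2 from 0, and only secreted cytokines changed sign among these. The K8 library, at 29.6 M reads, is the shallower one, and its floor of 4.10 normalized counts limits the folds of genes at 0 there.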
